A study of Mus musculus with 8 samples.

Results

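Heparan sulfate is a sulfated sugar chain that cells attach to membrane and matrix proteins, where it holds growth factors, chemokines and morphogens near their receptors. The chain is built in the Golgi on a short linker sugar fixed to a core protein, and the enzyme encoded by Extl3 adds the N-acetylglucosamine that commits the linker to heparan sulfate. Ext1 and Ext2 encode the polymerase that lengthens the chain, and sulfotransferases and an epimerase then modify it into patterns that proteins recognise. On macrophages, as on other cells, such chains bind chemokines and other ligands.

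The 9 genes described here are Extl3 together with Extl2, Ext1, Ext2, Ndst1, Ndst2, Hs2st1, Hs6st1 and Glce, out of 22597 genes in the deposited table. They were matched by gene symbol, and all 9 were found and passed the filter on low counts, as did 12750 genes in all. Extl3 was selected on its measured difference between the genotypes, and the other 8 were chosen by their place in the pathway with results of these data known. Values of Extl3 between the genotypes are therefore given as a description, with no test.

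The samples are polyadenylated RNA of lung interstitial macrophages, which reside in tissue rather than in the alveoli, in 8 libraries read with a stranded mRNA kit. The Tgfbr2_KO libraries (KO 1 to 4) come from recipients of Lyz2Cre Tgfbr2fl/fl marrow, in which Cre is made from Lyz2, a gene active in myeloid cells generally, and the WT libraries (WT 1 to 4) from recipients of Tgfbr2fl/fl marrow without Cre. Tgfbr2 encodes the type II receptor of TGF-β. All recipients were irradiated female CD45.1/CD45.2 IMDTR mice on a C57BL/6 background, also named Cx3cr1-DTR in the labels, with an age of 18 weeks in the protocol and 12 to 16 weeks in the sample labels. Each group was given 50 ng diphtheria toxin 1 month after transplantation and sampled 10 days after the toxin. Only KO donors carried Cre, so Cre itself and Tgfbr2 deletion cannot be told apart. Whether the 8 libraries are 8 separate mice is not stated, and p-values therefore measure only the spread among libraries, which may be technical.

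Library totals were 15597300 to 37654100 estimated counts, and each of the 9 genes had between 174 and 10250 counts in a library. Levels are CPM, counts relative to library size scaled with TMM factors. Tgfbr2 was at 424 to 576 CPM in Tgfbr2_KO and 474 to 548 CPM in WT, so the gene total does not separate the labels, and the sources used here do not give the part of the gene that is lost. Lyz2 was at 3439.9 to 5611 CPM in Tgfbr2_KO and 7285 to 13193 CPM in WT, with no overlap. Transcripts of other lung cells were high in KO 1, WT 1 and WT 2, which are called lung-rich below. The summed level of 10 epithelial markers was 5604 CPM in KO 1 and 3109.6 to 3571 CPM in WT 1 and WT 2, against 146 to 206 CPM in KO 2 to 4 and 225 to 228 CPM in WT 3 and WT 4. For 10 endothelial markers it was 4808 CPM in KO 1 and 2464 to 3205 CPM in WT 1 and WT 2, against 202 to 273 CPM in the other 5 libraries, and for 10 fibroblast markers it was 971 to 1577 CPM against 121 to 166 CPM. Sftpc (67.9 to 2815 CPM), Pecam1 (25.1 to 726 CPM) and Col1a1 (9.0 to 129 CPM) showed the same split. The 11 interstitial macrophage markers, among them Adgre1, Csf1r and C1qa, were present in every library and summed to 8220.2 CPM in KO 1, 17825 to 18442 CPM in KO 2 to 4, 11591 to 12019 CPM in WT 1 and WT 2, and 16295 to 16580.0 CPM in WT 3 and WT 4. These library sets were taken from earlier results on the same data and are not groups of the study.

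Extl3 (ENSMUSG00000021978, GRCm38 chromosome 14, 65052060 to 65149855, minus strand, GENCODE M21) was at 103, 93.1, 89.3 and 92.6 CPM in KO 1 to 4, against 136, 140.0, 153 and 148 CPM in WT 1 to 4. Every KO library lay below every WT library, and the gap between the groups was wider than the range within either. The means were 94.6 ± 6.04 CPM in Tgfbr2_KO and 144 ± 7.56 CPM in WT (SD, n = 4 each), so the KO mean was 65.6% of the WT mean. The log2 fold change was -0.61 (SE 0.07). The adjusted p that selected it was 0.0289 in the edgeR quasi-likelihood test over all genes, rank 2 among 13 genes called lower, or 0.102% of the genes tested, while 25 genes, 0.196%, were called higher. The last gene inside that threshold, Nbeal2, had an adjusted p of 0.0476 and the next one outside it, Ldlrad4, 0.0514. Leaving out any single library other than KO 1 took the value of Extl3 past the threshold (edgeR adjusted p between 0.0591 and 0.207), and without KO 1 it was 0.00216, while the log2 fold change stayed between -0.59 and -0.65. All these p-values reuse the contrast on which Extl3 was selected, so they describe that selection and do not test the difference.

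The difference was present in both library sets and was smaller in the lung-rich one. KO 1 held 74.8% of the mean level of WT 1 and WT 2, a log2 fold change of -0.42 (SE 0.06), and KO 2 to 4 held 61.0% of the mean of WT 3 and WT 4, a log2 fold change of -0.71 (SE 0.04). The lung-rich KO side rests on KO 1 alone, whose spread is assumed to be that of the other libraries. A term for the library set left the log2 fold change at -0.61 (SE 0.06), and it was -0.60 when WT 3 and WT 4, whose levels of the 9 genes lay close together, were summed as 1 library and KO 4 was dropped. In sorted bulk RNA, fewer cells of a type and less RNA per cell cannot be told apart. Lung cell markers and macrophage markers moved with the library set, and their part in the size of the difference was not tested. Some markers of other blood and airway cells also split by genotype within the other 5 libraries. Of the 10 epithelial markers 9 were higher in each lung-rich library than in each other one, but not the airway marker Scgb1a1. Scgb1a1 was at 10.3 to 21.6 CPM in KO 2 to 4 and 5.03 to 6.05 CPM in WT 3 and WT 4, opposite to the epithelial sum. It was at 24.8 CPM in KO 1 and 8.04 to 15.1 CPM in WT 1 and WT 2. Chil3, a gene of alveolar macrophages, was at 15.8 to 17.6 CPM in KO 2 to 4 and 347 to 348 CPM in WT 3 and WT 4. The 8 alveolar macrophage markers summed to 135 to 157 CPM in KO 2 to 4 and 484 to 492 CPM in WT 3 and WT 4, and to 194 CPM in KO 1 and 143 to 155 CPM in WT 1 and WT 2. Without Chil3 the sum was 119 to 139 CPM in KO 2 to 4 and 136 to 145 CPM in WT 3 and WT 4, so nearly all of that gap was Chil3. Of the remaining markers, Siglecf and Car4 were lower in KO 2 to 4 than in WT 3 and WT 4, Marco was higher, and the rest overlapped. Car4 also rose with the lung-rich set, at 107 CPM in KO 1 and 54.8 to 64.1 CPM in WT 1 and WT 2, against 5.08 to 11.9 CPM elsewhere. The 6 neutrophil markers summed to 139.7 to 154 CPM in KO 2 to 4 and 207 to 214 CPM in WT 3 and WT 4, and to 105 CPM in KO 1 and 106 to 113 CPM in WT 1 and WT 2. Most of that sum was Csf3r, at 105 to 119 CPM in KO 2 to 4 and 135 to 142 CPM in WT 3 and WT 4. Cxcr2 overlapped between these libraries (2.09 to 2.50 CPM and 2.05 to 2.51 CPM), and each of the other markers was lower in KO 2 to 4. The 8 lymphocyte markers, mostly Cd4 in these 5 libraries, summed to 63.4 to 85.0 CPM in KO 2 to 4 and 42.9 to 44.0 CPM in WT 3 and WT 4, and to 74.9 CPM in KO 1 and 49.7 to 55.0 CPM in WT 1 and WT 2. Their part was not tested.

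**Figure D1:**
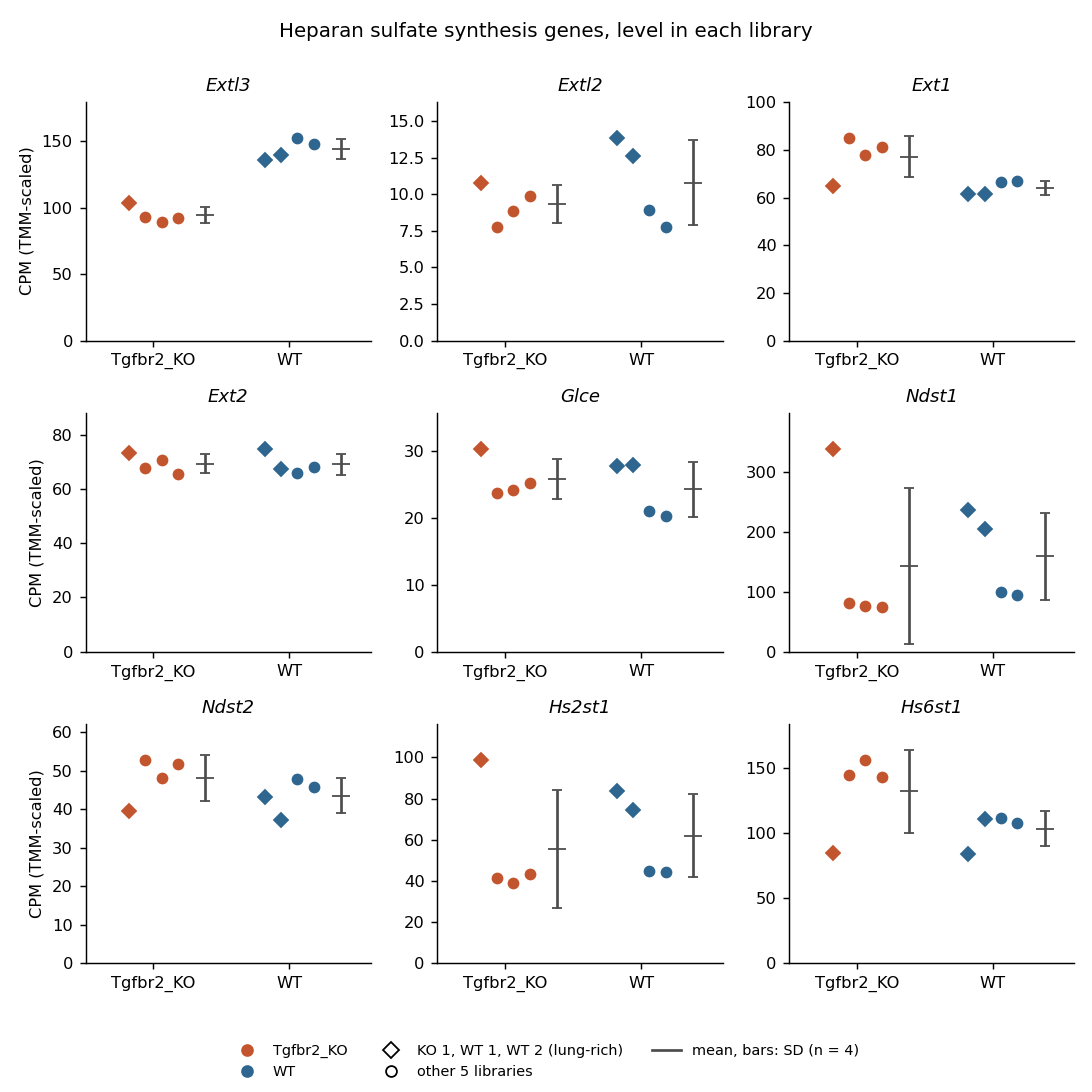
Level of each of the 9 genes in TMM-scaled CPM (vertical axes, from 0) in Tgfbr2_KO and WT, 1 point per library, with diamonds for KO 1, WT 1 and WT 2 and bars for mean and SD (n = 4). Only in the Extl3 panel do the genotypes not overlap (89.3 to 103 CPM against 136 to 153 CPM), while Ndst1 and Hs2st1 are highest in the diamonds.

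None of the other 8 genes passed the same threshold over all 8 libraries, in either direction (edgeR quasi-likelihood test), and none had genotypes that did not overlap. The DESeq2 Wald test also called 0 of the 8, beside 2.72% of all genes called higher and 1.41% lower, and 1 of the 8, Ext1, had an unadjusted p under 0.05. Their median log2 fold change was 0.05, against -0.01 over all genes tested. Non-overlap was met by 2.71% of all genes with the lower level in Tgfbr2_KO and by 4.19% with the higher level. In the fit with a term for the library set, 2 of the 8 were called higher (Ext1 and Glce) and 0 lower, beside 8.59% and 7.89% of all genes. Within KO 2 to 4 against WT 3 and WT 4, 3 were called higher (Ext1, Hs6st1 and Glce) and 1 lower (Ndst1), beside 19.7% and 18.7% of all genes. In KO 1 against WT 1 and WT 2, Ndst1 and Hs2st1 were called higher and 0 lower, beside 11.7% and 9.51% of all genes. Without KO 1, Ext1 (log2 fold change 0.34) and Hs6st1 (0.51) were called higher and 0 lower (edgeR adjusted p = 0.0194 and 0.0406), beside 4.85% and 1.89% of all genes.

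Extl2 (chromosome 3, 116007462 to 116029017) encodes a relative of the initiating enzyme, which can cap a phosphorylated linker and stop chain growth. It was the lowest of the 9 genes per exonic length in every library. It was at 10.8, 7.75, 8.87 and 9.90 CPM in KO 1 to 4, against 13.8, 12.6, 8.92 and 7.79 CPM in WT 1 to 4. The genotypes overlapped and the lung-rich libraries were the 3 highest values, and its log2 fold change was -0.21 with a wide 95% interval from -0.70 to 0.28 (edgeR adjusted p = 0.952). In KO 2 to 4 against WT 3 and WT 4 it was 0.09, with the opposite sign.

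Of the polymerase subunits, Ext1 lay somewhat higher in most KO libraries and Ext2 was level. Ext1 (chromosome 15, 53064038 to 53346159) was at 64.9, 85.1, 77.8 and 81.2 CPM in KO 1 to 4, against 61.7, 61.5, 66.6 and 66.9 CPM in WT 1 to 4. KO 2 to 4 lay above all WT libraries and KO 1 lay among them. The log2 fold change was 0.27 (SE 0.09, edgeR adjusted p = 0.339). A term for the library set made it 0.21 (edgeR adjusted p = 0.0364). Once WT 3 and WT 4 were counted as 1 library, without KO 4, it did not pass (0.15, edgeR adjusted p = 0.412). In KO 2 to 4 against WT 3 and WT 4 it was 0.29 (edgeR adjusted p = 6.83e-05), and 0.08 in the lung-rich libraries. Ext2 (chromosome 2, 93661028 to 93822568) was at 73.3, 67.8, 70.6 and 65.3 CPM in KO 1 to 4, against 74.6, 67.4, 65.8 and 68.2 CPM in WT 1 to 4. Its log2 fold change was 0.01, with the narrowest 95% interval among the 8, from -0.14 to 0.15 (edgeR adjusted p = 1.00).

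The products of Ext1 and Ext2 act as a complex, so their transcripts were also set against each other within each library. The ratio of Ext1 to Ext2 per exonic length was 0.803, 1.14, 1.00 and 1.13 in KO 1 to 4, against 0.750, 0.83, 0.918 and 0.889 in WT 1 to 4. KO 1 lay inside the WT range and KO 2 to 4 above it. The ratio of Extl3 to Ext1 per exonic length was 2.12, 1.46, 1.53 and 1.52 in KO 1 to 4, against 2.94, 3.03, 3.05 and 2.95 in WT 1 to 4, so the WT libraries of both sets had nearly the same value.

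The N-deacetylase/N-sulfotransferases Ndst1 and Ndst2 open the modification of the chain, and their transcripts differed mostly between library sets. Ndst1 (chromosome 18, 60684494 to 60748650) was at 339, 82.0, 76.2 and 75.6 CPM in KO 1 to 4, against 237, 206, 100.5 and 95.7 CPM in WT 1 to 4. The 3 lung-rich libraries were the highest, with a mean 3.03 times that of the other 5. Over all libraries its log2 fold change was -0.16 (SE 0.61, edgeR adjusted p = 1.00), with a 95% interval from -1.59 to 1.28 that leaves its direction undetermined. It was -0.33 in KO 2 to 4 against WT 3 and WT 4 (edgeR adjusted p = 1.24e-05) and 0.61 in KO 1 against WT 1 and WT 2 (edgeR adjusted p = 6.35e-04). In a fit with a term for the difference between the sets, these values differed by 0.94 (lung-rich minus other, SE 0.10, edgeR adjusted p = 1.89e-04). Ndst2 (chromosome 14, 20723730 to 20734562) was at 39.5, 52.7, 48.1 and 51.9 CPM in KO 1 to 4, against 43.2, 37.2, 47.8 and 45.7 CPM in WT 1 to 4, with overlapping genotypes (log2 fold change 0.14, SE 0.12, edgeR adjusted p = 0.875). The ratio of Ndst1 to Ndst2 per exonic length was 4.71 in KO 1 and 0.801 to 0.871 in KO 2 to 4, against 3.02 and 3.04 in WT 1 and WT 2 and 1.15 in both WT 3 and WT 4.

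Glce encodes the epimerase that turns glucuronic into iduronic acid, and Hs2st1 the 2-O-sulfotransferase that acts beside it. Glce (chromosome 9, 62057248 to 62122655) was at 30.3, 23.7, 24.2 and 25.3 CPM in KO 1 to 4, against 27.8, 28.0, 21.1 and 20.4 CPM in WT 1 to 4. KO libraries lay above WT libraries of their own set in every case, by little, and the pooled log2 fold change was 0.09 (SE 0.14, edgeR adjusted p = 1.00). A term for the library set made it 0.19 (edgeR adjusted p = 0.0497), and in the fit that sums WT 3 and WT 4 without KO 4 it was 0.14 (edgeR adjusted p = 0.417). Hs2st1 (chromosome 3, 144429706 to 144570181) was at 98.5, 41.4, 39.0 and 43.2 CPM in KO 1 to 4, against 83.5, 74.6, 44.7 and 44.5 CPM in WT 1 to 4. Its lung-rich levels, as for Ndst1, were the highest, 2.01 times the mean of the others, and its genotype difference had opposite signs in the sets (log2 fold change -0.11 in KO 2 to 4 against WT 3 and WT 4, edgeR adjusted p = 0.146, and 0.32 in the lung-rich set, edgeR adjusted p = 0.0178). The pooled value was -0.15 (SE 0.37, edgeR adjusted p = 1.00).

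Hs6st1 (chromosome 1, 36068400 to 36106446), the 6-O-sulfotransferase gene of the list, was at 84.9, 145, 156 and 144 CPM in KO 1 to 4, against 84.0, 111, 112 and 108 CPM in WT 1 to 4. KO 2 to 4 lay above all WT libraries, and KO 1 lay beside WT 1 at the bottom. The log2 fold change was 0.35 (SE 0.20, edgeR adjusted p = 0.671), with 0.44 in KO 2 to 4 against WT 3 and WT 4 (edgeR adjusted p = 1.18e-07) and -0.20 in the lung-rich set (edgeR adjusted p = 0.381). In the fit with a term for the difference between the sets, Hs6st1 differed by -0.64 (SE 0.18, edgeR adjusted p = 0.0479), Hs2st1 by 0.43 (SE 0.10, edgeR adjusted p = 0.0152) and the value for Extl3, a description, was 0.29 (SE 0.07). That term was called for 18.9% of all genes, and its lung-rich side rests on KO 1 as the single KO library.

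**Figure D2:**
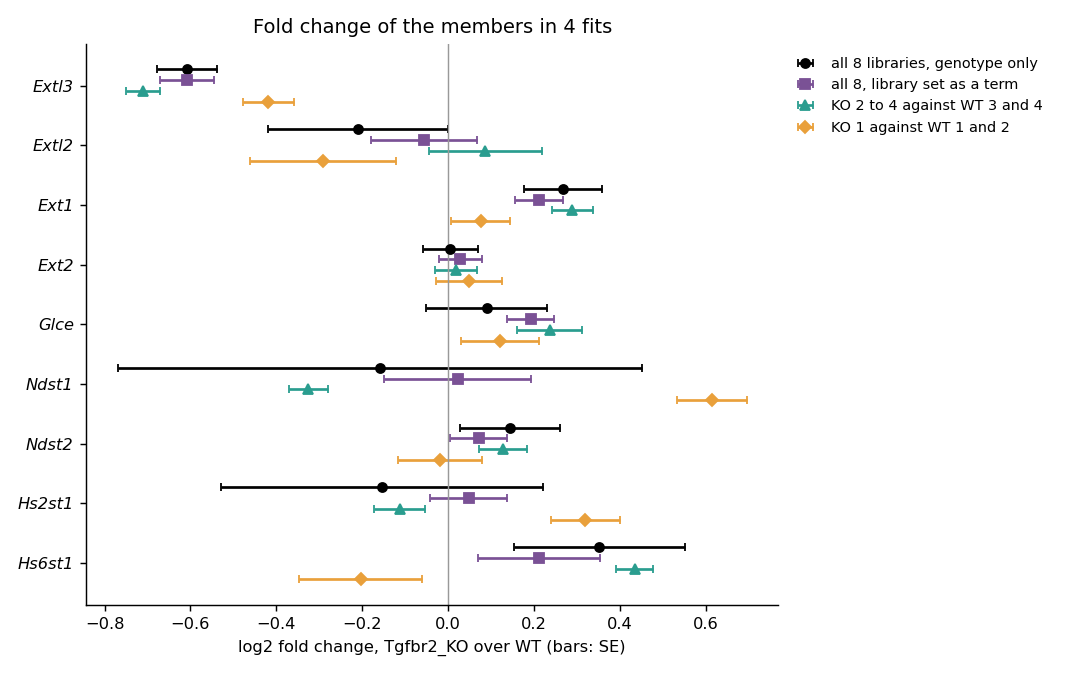
Log2 fold change of each gene, Tgfbr2_KO over WT (horizontal axis, bars for SE), in 4 fits shown by colour and symbol. Extl3 lies left of 0 in all 4, between -0.42 and -0.71, and Ndst1, Hs2st1 and Hs6st1 lie on opposite sides of 0 in the 2 library sets by more than their SE.

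Across library sets, and without regard to genotype, Extl2, Ndst1, Hs2st1 and Glce were higher in each of the 3 lung-rich libraries than in each of the other 5, beside 28.1% of all genes tested. Ext1 and Ndst2 were lower in each of the 3, beside 23.1% of all genes. Extl3, Ext2 and Hs6st1 followed neither pattern. The mean of Extl3 in lung-rich libraries was 1.10 times that in the others, but the sets differ in their mix of genotypes. Within genotypes the lung-rich level of Extl3 was 0.918 times the other in WT and 1.13 times in Tgfbr2_KO, the latter from KO 1 alone. The summed epithelial, endothelial and fibroblast markers given above moved with these levels, and their part was not tested.

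Levels can be compared between genes only per exonic length, here CPM per kilobase of the union of annotated exons. On that scale, over all 8 libraries, Hs6st1 averaged 21.3 ± 4.96, Extl3 19.7 ± 4.50, Ndst1 18.3 ± 11.9, Ndst2 10.1 ± 1.21, Ext2 9.43 ± 0.46, Ext1 8.75 ± 1.14, Hs2st1 7.15 ± 2.83, Glce 3.68 ± 0.51 and Extl2 2.92 ± 0.64 CPM per kilobase (SD over 8 libraries). Each neighbouring pair from Hs6st1 down to Hs2st1 differed by less than the larger of their SDs, and only the steps from Hs2st1 to Glce and from Glce to Extl2 were larger and held in 8 of 8 libraries. Extl3 was thus among the most abundant transcripts of the set in both genotypes. It had rank 2 of the 9 in KO 1 to 4, WT 1 and WT 2, and highest in WT 3 and WT 4. The ratio of Extl3 to Hs6st1 per exonic length was 1.11 in KO 1 and 0.522 to 0.590 in KO 2 to 4, against 1.15 to 1.48 in WT 1 to 4. So Hs6st1 stood above Extl3 in KO 2 to 4 and below it in all WT libraries and KO 1. An annotated antisense gene, Gm37335, overlaps exons of Hs6st1, and the strand setting of the counting was not stated in the labels or headers.

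**Figure D3:**
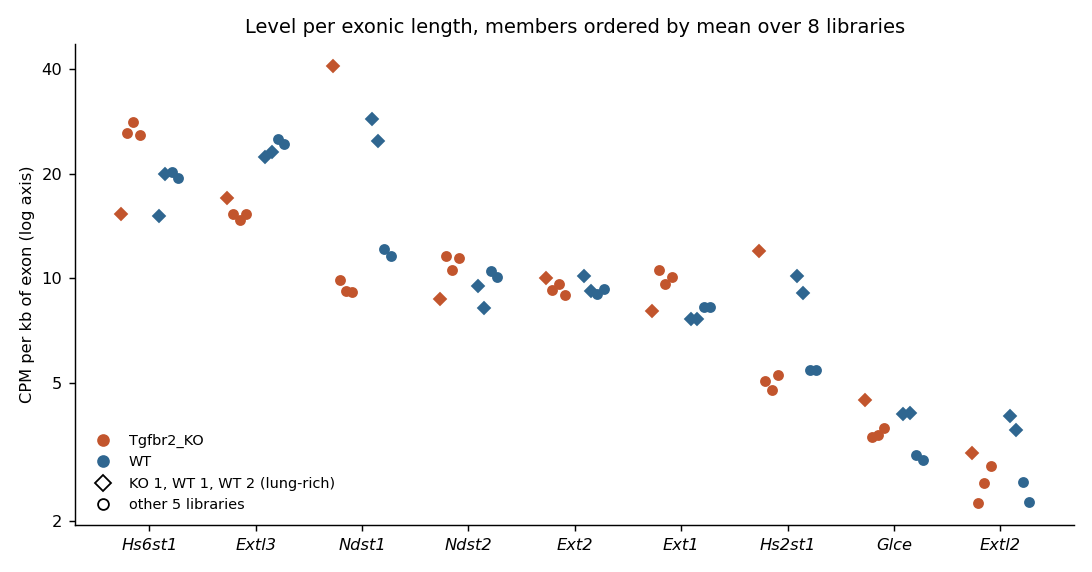
Level of each gene in CPM per kilobase of exon (logarithmic vertical axis) in each library, Tgfbr2_KO left of WT within a gene, with diamonds for KO 1, WT 1 and WT 2. Genes run in order of their mean, 21.3 for Hs6st1 down to 2.92 for Extl2, and Extl3 is the gene with all WT points above all KO points.

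The linker on which Extl3 acts can instead be committed to chondroitin sulfate by the N-acetylgalactosaminyltransferases encoded by Csgalnact1 and Csgalnact2, and the linker itself begins with the xylosyltransferases encoded by Xylt1 and Xylt2. Csgalnact2 was at 81.8, 77.3, 82.2 and 80.7 CPM in KO 1 to 4, against 75.1, 75.2, 66.4 and 65.1 CPM in WT 1 to 4. The KO libraries were all higher, though KO 2 exceeded WT 2 by little, and the log2 fold change was 0.19 (SE 0.07, edgeR adjusted p = 0.358). A term for the library set made it 0.23 (edgeR adjusted p = 0.0173). The ratio of Extl3 to Csgalnact2 per exonic length was 1.13, 1.08, 0.974 and 1.03 in KO 1 to 4, against 1.62, 1.67, 2.06 and 2.04 in WT 1 to 4. The WT libraries thus held more Extl3 than Csgalnact2 transcript per length, and the KO libraries nearly equal levels. Csgalnact1 was at 0.715 to 1.33 CPM in KO 2 to 4 and 28.2 CPM in KO 1, against 0.675 to 1.44 CPM in WT 3 and WT 4 and 13.7 to 18.7 CPM in WT 1 and WT 2.

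Xylt1 was at 34.0, 58.5, 64.4 and 59.5 CPM in KO 1 to 4, against 70.0, 72.8, 112 and 101 CPM in WT 1 to 4. All KO libraries were lower than all WT libraries, and KO 1 was the lowest of the 8. The pooled log2 fold change was -0.72 (SE 0.24), short of the threshold (edgeR adjusted p = 0.329). A term for the library set made it -0.90 (edgeR adjusted p = 2.81e-04), with -0.80 in KO 2 to 4 against WT 3 and WT 4 and -1.07 in KO 1 against WT 1 and WT 2. Summing WT 3 and WT 4 and dropping KO 4 gave -0.95 (edgeR adjusted p = 0.0258). Xylt2, the xylosyltransferase gene with the higher level per length, was at 38.6 to 54.4 CPM in Tgfbr2_KO and 46.2 to 56.8 CPM in WT (edgeR adjusted p = 1.00).

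**Figure D4:**
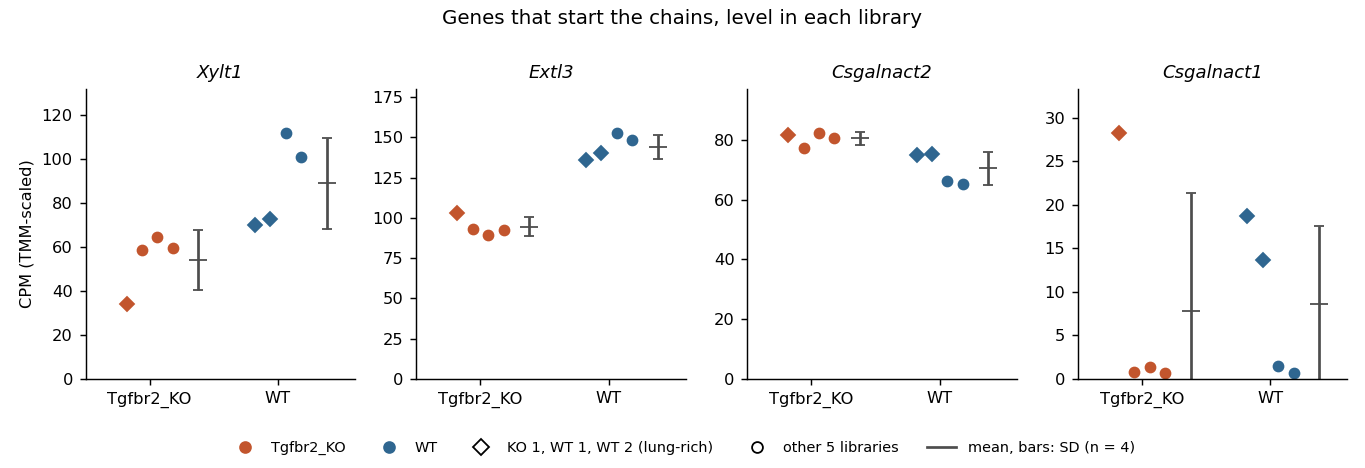
Level in TMM-scaled CPM (vertical axes, from 0, with SD bars cut at 0) of Xylt1, Extl3, Csgalnact2 and Csgalnact1 in Tgfbr2_KO and WT, 1 point per library, diamonds for KO 1, WT 1 and WT 2. Genotypes do not overlap for Xylt1 and Extl3 (lower in Tgfbr2_KO) or Csgalnact2 (higher), as for 2.71% (lower) and 4.19% (higher) of all genes tested. Csgalnact1 reaches 28.2 CPM in KO 1.

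Beyond the 9 genes, 74 genes of the pathway were taken in 7 lists, of which 61 passed the filter on low counts. The 13 that did not include Extl1, Ndst3, Ndst4, Hs6st2, Hs6st3 and 4 of the 3-O-sulfotransferase genes. None of the 61 was called over all 8 libraries with edgeR, 5 had an unadjusted p under 0.05, and the DESeq2 Wald test called 1, Hs3st3b1. Their median log2 fold change was -0.08, against -0.01 for all genes. With the library set as a term 3 were higher and 6 lower, and in KO 2 to 4 against WT 3 and WT 4 10 of 60 were higher and 17 lower, beside the shares of all genes given above. In the fit that sums WT 3 and WT 4 without KO 4, 1 of those 9 calls with the set term held, that of Xylt1, beside 0.519% of all genes called higher and 0.853% lower in that fit.

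In linker synthesis 0 of 7 tested genes passed, with a median log2 fold change of -0.09. Over all 8 libraries the genotypes overlapped for the other 6: the xylose kinase Fam20b was at 66.6 to 73.7 CPM in Tgfbr2_KO and 68.0 to 76.7 CPM in WT, the galactosyltransferase B4galt7 at 9.58 to 11.2 CPM in Tgfbr2_KO and 9.88 to 14 CPM in WT, and the xylose phosphatase Pxylp1 at 2.12 to 2.78 CPM in Tgfbr2_KO and 2.72 to 3.54 CPM in WT. In KO 2 to 4 against WT 3 and WT 4, 3 of the 7 were called lower and 0 higher, beside 18.7% and 19.7% of all genes. Beside Xylt1 these were B4galt7 and Fam20b. B4galt7 was at 9.58 to 11.2 CPM in KO 2 to 4 and 12.6 to 14 CPM in WT 3 and WT 4. On the log2 scale the difference was -0.38 for B4galt7 (edgeR adjusted p = 0.0094) and -0.13 for Fam20b (edgeR adjusted p = 0.0423). In KO 1 against WT 1 and WT 2 both had the other sign, 0.07 for B4galt7 and 0.09 for Fam20b. Of 12 further genes that polymerise or modify the chain 3 were tested and 0 passed. The 3-O-sulfotransferase Hs3st3b1 was at 4.43, 4.08, 3.52 and 4.73 CPM in KO 1 to 4, against 5.21, 6.15, 7.28 and 6.67 CPM in WT 1 to 4. It did not overlap between genotypes (log2 fold change -0.59, edgeR adjusted p = 0.207). A set term made its edgeR adjusted p 0.0249. Hs3st1, of the same enzyme family, was at 24.6 CPM in KO 1 and 0.440 to 1.46 CPM in KO 2 to 4, against 11.1 to 22.5 CPM in WT 1 and WT 2 and 0.769 to 0.844 CPM in WT 3 and WT 4. Hs3st3a1 was at 1.89 to 2.97 CPM in Tgfbr2_KO and 0.872 to 4.48 CPM in WT.

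Of the enzymes that edit the finished chain outside the cell, 0 of 3 tested passed. The endosulfatase gene Sulf2 had the highest level per length of them, 145 to 282 CPM in Tgfbr2_KO and 224 to 296 CPM in WT, with KO 1 lowest. Sulf1 was at 0.935 to 1.17 CPM in KO 2 to 4, against 3.07 to 3.08 CPM in WT 3 and WT 4, and 11.7 to 19.0 CPM in the lung-rich libraries. Heparanase, encoded by Hpse, was at 19.8 to 45.9 CPM in Tgfbr2_KO and 12.4 to 44.4 CPM in WT.

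For core proteins that carry the chains 0 of 11 tested passed, with a median log2 fold change of -0.16. Of the 11, 7 were higher in each lung-rich library than in each other one, beside 28.1% of all genes tested. The syndecan Sdc4 had the highest level per length among core proteins, at 379, 583, 701 and 659.8 CPM in KO 1 to 4, against 429.9, 544, 422 and 432 CPM in WT 1 to 4. Sdc3 was at 597, 1156, 1174 and 1125 CPM in KO 1 to 4, against 546, 577, 888 and 893 CPM in WT 1 to 4, above the WT libraries of the same set each time (log2 fold change 0.48, edgeR adjusted p = 0.680). Its value in the fit with a set term was 0.27 (edgeR adjusted p = 0.0326). The glypican Gpc1 was at 3.92 to 9.42 CPM in Tgfbr2_KO and 6.63 to 10.2 CPM in WT, and Gpc2 at 2.14 to 3.07 CPM in Tgfbr2_KO and 2.77 to 3.94 CPM in WT. Without KO 1, Gpc1 was called lower (log2 fold change -1.02, edgeR adjusted p = 0.0325). In that fit 1 of 61 tested pathway genes was called lower, beside 1.89% of all genes. Perlecan, encoded by Hspg2 and made by vessel and matrix cells, was at 217 CPM in KO 1 and 10.9 to 13.4 CPM in KO 2 to 4, against 112 to 137 CPM in WT 1 and WT 2 and 14.6 to 15.7 CPM in WT 3 and WT 4.

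In chondroitin and dermatan sulfate synthesis 0 of 15 tested genes passed (median log2 fold change 0.01). Ust, the uronyl 2-O-sulfotransferase gene, was at 15.7, 30.2, 29.3 and 25.7 CPM in KO 1 to 4, against 17.7, 17.8, 18.9 and 17.5 CPM in WT 1 to 4. KO 2 to 4 were above all WT libraries and KO 1 below them (log2 fold change 0.49, SE 0.19, edgeR adjusted p = 0.427). The epimerase gene Dse, the highest of this list per length, had the same arrangement, at 90.6 CPM in KO 1 and 135 to 144 CPM in KO 2 to 4, against 95.7 to 105 CPM in WT. Without KO 1, Ust and Dse were called higher (log2 fold change 0.66 and 0.44, edgeR adjusted p = 0.00465 and 0.00699). In that fit 3 of 61 tested pathway genes were called higher, beside 4.85% of all genes. Chpf2, a chondroitin polymerising factor gene, was at 41.7 to 44.4 CPM in Tgfbr2_KO and 40.5 to 51.5 CPM in WT. The sulfotransferase gene Chst15 was at 45.1 CPM in KO 1 and 9.07 to 11.7 CPM in KO 2 to 4, against 25.8 to 31.9 CPM in WT 1 and WT 2 and 6.31 to 6.53 CPM in WT 3 and WT 4, and the fit with a set term gave 0.65 on the log2 scale (edgeR adjusted p = 0.00572).

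None of 14 genes for sugar and sulfate donors passed (median log2 fold change -0.06). Slc35b2, which encodes a Golgi transporter of the sulfate donor and had the highest level per length there, was at 74.0 to 130.1 CPM in Tgfbr2_KO and 94.2 to 152 CPM in WT (log2 fold change with the set term -0.30, edgeR adjusted p = 0.0146). The smallest unadjusted p-values of that list belonged to Slc35d1, at 12.2 to 15.3 CPM in Tgfbr2_KO and 14.2 to 18.4 CPM in WT, Papss2, at 16.4 to 18 CPM in Tgfbr2_KO and 16.6 to 23.6 CPM in WT, Uap1, at 66.9 to 78.4 CPM in Tgfbr2_KO and 67.5 to 69.5 CPM in WT, and Slc35d2, at 7.57 to 9.71 CPM in Tgfbr2_KO and 6.37 to 7.85 CPM in WT. Of 8 lysosomal genes that break heparan sulfate down 0 passed (median -0.12), and with the set term Naglu (-0.34) and Gusb (-0.33) were among those lower (edgeR adjusted p = 0.00195 and 0.00951). Hgsnat, the acetyltransferase gene of that route, was at 54.9, 85.2, 82.4 and 90.2 CPM in KO 1 to 4, against 63.0, 54.8, 61.0 and 62.5 CPM in WT 1 to 4 (log2 fold change 0.37, edgeR adjusted p = 0.444), with KO 1 inside the WT range. Without KO 1 it was called higher (0.51, edgeR adjusted p = 0.00802), beside 4.85% of all genes in that fit. The lysosomal sulfatase genes Sgsh and Ids were at 36.4 to 41.0 and 157 to 177 CPM in Tgfbr2_KO, against 36.9 to 46.7 and 155 to 168 CPM in WT.

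**Figure D5:**
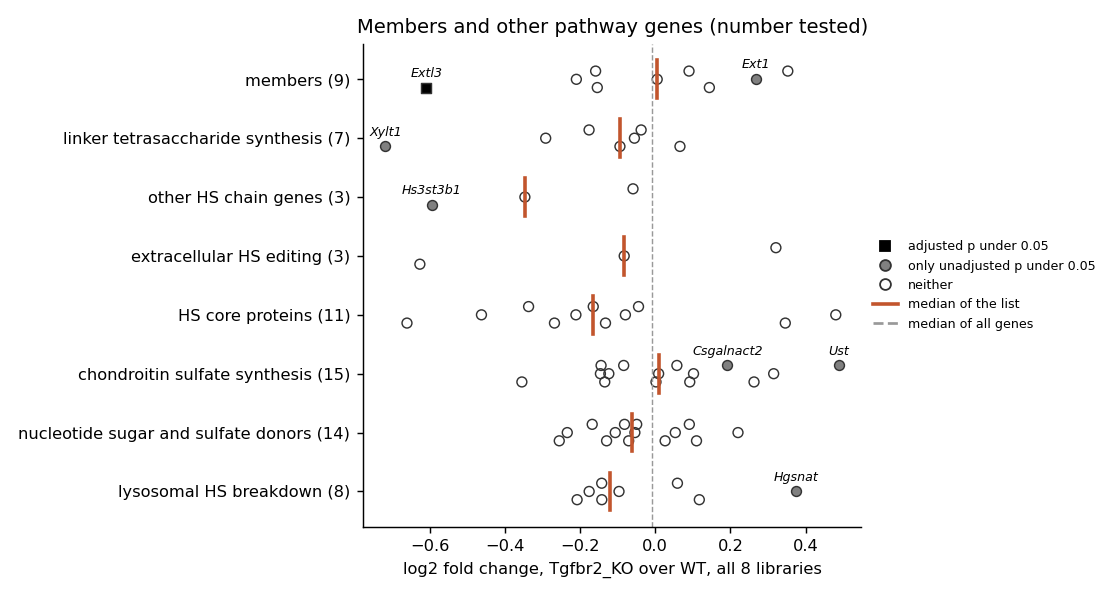
Log2 fold change over all 8 libraries, Tgfbr2_KO over WT (horizontal axis), of the 9 members and of each tested gene of the 7 pathway lists (rows, with the number tested), with a bar for each list's median. Extl3 is the filled square at -0.61, and Xylt1 at -0.72 and Ust at 0.49 are the outermost of all points.

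Among 8807 genes with a mean of at least 10 CPM, those whose log2 CPM over the 8 libraries was most like that of Extl3 were Nbeal2 (Pearson r 0.99), Dst (0.99), Fads1 (0.99), Pik3cb (0.98) and Cd9 (0.98). All 5 had lower means in Tgfbr2_KO, from 45.4 against 58.4 CPM for Pik3cb to 189 against 390.2 CPM for Cd9. That direction follows from choosing them by likeness to Extl3 and is no added result. Within the pathway members, the correlation with Extl3 over the 8 libraries lay between -0.79 for Ext1 and 0.30 for Ndst1. Over the other 5 libraries alone it was 0.97 for Ndst1, 0.80 for Hs2st1, -0.27 for Extl2, -0.94 for Ext1, -0.95 for Glce and -0.98 for Hs6st1, where 3 KO libraries are set against 2 WT libraries. The points share genotype and library set, so these values describe the pattern only.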

How the data were processed

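Expression was measured in 8 mRNA libraries of sorted mouse lung interstitial macrophages, 4 of Tgfbr2_KO and 4 of WT. The deposited table holds estimated counts per gene, made by the authors with salmon and merged over samples, per the file headers. The genome was GRCm38 and DESeq2 1.40.1 was among the tools, per the submitters' processing notes. No label or header gives the salmon version, its annotation, the strand setting or any filter. Libraries were grouped by the sample labels.

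Estimated counts were rounded to whole numbers, genes were kept with filterByExpr (minimum count 10, minimum total 15) and libraries were scaled with TMM. Genotypes were compared with edgeR 4.0.16 quasi-likelihood tests (robust) in R 4.3.3, with Benjamini-Hochberg adjustment over all genes tested and a threshold of 0.05. Alternatives were DESeq2 1.42.0 size factors, its Wald test, no filter, the replicate number as a block, the library set as a term, each library set alone, WT 3 and WT 4 summed with KO 4 left out, and leaving out each library. The value for KO 1 against WT 1 and WT 2 comes from a fit of all 8 libraries with 4 cells (genotype by set). Only the fits with genotype alone and with a set term were run on simulated counts, with independent libraries and larger changes than that of Extl3. That run does not assess smaller changes or libraries that are not independent. Exonic lengths are unions of GENCODE M21 exons.

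The members, the 7 pathway lists, the 7 marker lists and the library sets were chosen with earlier results of these data known. The named genes are the 9 members, Csgalnact1 and Csgalnact2, up to 4 tested genes with the smallest p and the 1 with the highest level per length in each pathway list, the 5 genes most like Extl3, and markers and checks. Hspg2, Chst15, Gusb, Naglu, Slc35b2 and others named for a call in another fit were chosen after their values were seen. So were Chil3 and the other single markers of blood and airway cells. A count of 3 in a library, the limit that a count of 0 allows, is 0.0844 to 0.177 CPM. Such floors cover counting error only. The values of 1 further pathway gene, which its list's counts include, are not reported here. No sequence is shown, and promoter and protein sequences were not used here.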

Additional observations from a re-analysis of the deposited data

Results flagged for a closer look

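Within groups of 4 libraries, 10 of 42 groups over 21 genes had a library far from the other 3 by Dixon's criterion at the 95% level, where chance flags about 1 in 20 groups, and 8 of the 10 were KO 1. Over all 12750 genes tested 17.7% of groups had such a library, and KO 1 was it for 31.7% of genes. Of the pathway genes, Chst15, Slc35b2, Naglu and Gusb were named for a call after their values were seen. Among the 9 heparan sulfate genes, Ndst1 (339 CPM) and Hs2st1 (98.5 CPM) stood high in KO 1, and Hs6st1 stood low in WT 1 (84.0 CPM). Among other pathway genes, KO 1 stood high for Chst15 (45.1 CPM) and low for Sdc3 (597 CPM), Slc35b2 (74.0 CPM), Naglu (31.7 CPM) and Gusb (174 CPM). Of the genes that check the labels, Lyz2 was low in KO 1 (3439.9 CPM) and Tgfbr2 in WT 2 (474 CPM).

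In the edgeR fit, a term for a genotype difference that differs between library sets was called for 3 of the 8 members other than Extl3, beside 18.9% of all genes. The log2 fold change in KO 1 against WT 1 and WT 2, minus that in KO 2 to 4 against WT 3 and WT 4, was 0.94 for Ndst1, 0.43 for Hs2st1 and -0.64 for Hs6st1 (edgeR adjusted p = 1.89e-04, 0.0152 and 0.0479). The lung-rich KO side is KO 1 alone, assumed to vary like the other libraries, so a trait of that library and of the set cannot be told apart. KO 1 also held more lung transcripts than WT 1 and WT 2 (epithelial sum 5604 CPM in KO 1 and 3109.6 to 3571 CPM in WT 1 and WT 2), and their part was not tested.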

How the results depend on the processing

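The log2 fold change of Extl3 was below 0 under every alternative run. Extl3 was selected on this difference, and every KO library lay below every WT library. Leaving out libraries therefore could not turn the sign, and these values only describe the size of the difference. The log2 fold change of Extl3 was -0.71 in KO 2 to 4 against WT 3 and WT 4, -0.42 in KO 1 against WT 1 and WT 2, -0.59 to -0.65 with 1 library left out, and -0.61 with a replicate block. Same-number correlations of deviations were 0.867, -0.794, 0.694 and 0.753. Their signs followed the library sets, so they cannot show whether the replicate numbers pair the samples. With the replicate block 0 genes in all were called, against 25 higher and 13 lower without it (1479 genes had an unadjusted p under 0.05). DESeq2's Wald test called 347 higher and 180 lower. The set term called 8.59% of all genes higher and 7.89% lower. In KO 2 to 4 against WT 3 and WT 4 the shares were 19.7% higher and 18.7% lower, and those for the lung-rich set are given above. Without KO 1 they were 4.85% higher and 1.89% lower, and 0 genes were called with any other single library left out. The counts of members and pathway genes that follow stand beside these shares, and whether they differ from them was not tested.

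Of the other 8 members, the number called higher was 2 with the set term, 3 and 2 within the sets, and 0 to 2 with 1 library left out, and the number called lower was 1 in KO 2 to 4 against WT 3 and WT 4 and 0 to 0 with 1 library left out. Among pathway genes, the number higher was 3 with the set term, 10 and 7 within the sets and 0 to 3 with 1 library left out. The number lower was 1 with the Wald test, 6 with the set term, 17 and 9 within the sets, 1 with WT 3 and WT 4 summed and 0 to 1 with 1 library left out.

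Among the members and the pathway genes with an unadjusted p under 0.05 or a call with the set term, the direction turned in KO 2 to 4 against WT 3 and WT 4 for Extl2 (0.087), and in KO 1 against WT 1 and WT 2 for Ndst1 (0.61), Ndst2 (-0.019), Hs2st1 (0.32), Hs6st1 (-0.20), Ust (-0.18) and Hgsnat (-0.098). In KO 1 against WT 1 and WT 2 it turned for 34 of 61 pathway genes in all, among them Dse (-0.12), Sdc4 (-0.36) and Gpc1 (0.24). It turned with the set term for Ndst1 (0.022) and Hs2st1 (0.048), with WT 3 and WT 4 summed for Ndst1 (0.13) and Hs2st1 (0.056), and with DESeq2 size factors for Ext2 (-0.0016). With 1 library left out, log2 fold changes crossed 0 for Ext2 (-0.024 to 0.044), Ndst1 (-1.04 to 0.096), Hs2st1 (-0.59 to 0.025), Chst15 (-0.80 to 0.55), Slc35b2 (-0.24 to 0.031) and Gusb (-0.26 to 0.024). The cause was not tested. Depth limits Extl2 most among the members.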
